A study of Mus musculus with 6 samples.

Results

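The collagen genes are described here as they were read in the gastrocnemius, a calf muscle of mixed fibre types, from male mice aged 8 weeks. Members were taken by name: every gene of the table with values whose symbol reads Col, a number, a and a number, with a mean raw count of at least 5 over the 6 libraries. Of 17034 genes with values, 44 had such a symbol and 42 met the count. They divide into 11 fibrillar chains, 8 chains of the basement membrane (type IV with Col15a1 and Col18a1) and 23 other chains. The last class holds 5 type VI chains, 9 FACITs (collagens that sit on fibrils and have interrupted helices), 4 transmembrane collagens and 5 remaining chains. Just inside the count stood Col6a5 with a mean of 5.17 reads and Col2a1 with 9.83, and just outside it Col10a1 and Col6a4, with 0.667 each.

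Both groups were homozygous for a floxed allele of Thra, which encodes thyroid hormone receptor alpha (Thra fl/fl). Mice labelled TRa_mKO had the Myf5-Cre transgene in addition, whose promoter is active in the earliest muscle precursors, and their littermates labelled WT had no Cre. No drug or diet was given, and fat and connective tissue visible on the muscle were trimmed off before freezing, per the labels. Each genotype had 3 libraries of polyadenylated RNA, and the series design counts 3 mice per genotype.

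Total counts were 12390527 to 14488500 per library. Thra itself read 78.8, 92.8 and 96.8 CPM (read counts scaled to the library's size by TMM) in WT and, in libraries labelled TRa_mKO, 129, 118 and 101 CPM (adjusted p = 0.117). Its gene-level count was thus not lower there, and all directions below depend on the labels. The count covers the whole gene, includes shared reads and overlaps Nr1d1, and which exons the floxed allele removes is not stated, so it is no check of the deletion. All 11 markers of skeletal muscle fibres were well detected, with Acta1 at 27568 ± 3275 CPM in WT, against 38011 ± 3329 CPM in TRa_mKO (mean ± SD, n = 3 each). Haemoglobin transcripts were most abundant in WT replicate 1 (1742 CPM) and TRa_mKO replicate 3 (1599 CPM), the others holding 453 to 907 CPM.

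Collagens are triple-helical proteins built on repeats of glycine followed by a pair of other residues, often proline and hydroxyproline. Fibrillar collagens, made in muscle mainly by fibroblasts, form the tension-bearing fibrils of endomysium, perimysium and tendon. Type IV collagen forms the sheet-like scaffold of the basement membrane that wraps each muscle fibre and capillary, and type VI collagen forms beaded microfilaments that link that sheet to the fibrils. Muscle fibres make some chains themselves at special sites, such as the myotendinous and neuromuscular junctions. In bulk tissue, fewer cells of a type and less RNA per cell cannot be told apart.

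The abundant collagens did not pass the test, and 4 scarce chains did. Col26a1 and Col4a5 rose and Col24a1 and Col9a1 fell in the libraries labelled TRa_mKO (edgeR quasi-likelihood test, Benjamini-Hochberg adjusted p below 0.05 over 13118 genes). Of the 42 members 40 had enough counts to be tested, Col2a1 and Col6a5 being the exceptions, and 36 of the 40 did not pass. The share called was 10% of the members tested, against 4.17% of all genes tested (2.52% higher and 1.65% lower). By class, 0 fibrillar chains rose and 1 fell of 10 tested, 1 basement membrane chain rose and 0 fell of 8, and 1 other chain rose and 1 fell of 22. Without the library richest in haemoglobin of either genotype, 5 members passed, Col7a1 joining these 4, while fewer members were higher at an unadjusted p below 0.05 (4 in place of 11, with 8.1% of all genes in that fit) and the fibrillar and basement membrane medians on the log2 scale came to 0.13 and 0.03. Together the 4 called genes gave 1.21% to 1.71% of the collagen reads of a library. At an unadjusted p below 0.05 there were 11 members higher and 2 lower, where 10.2% of all genes tested were higher and 7.72% lower.

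**Figure D1:**
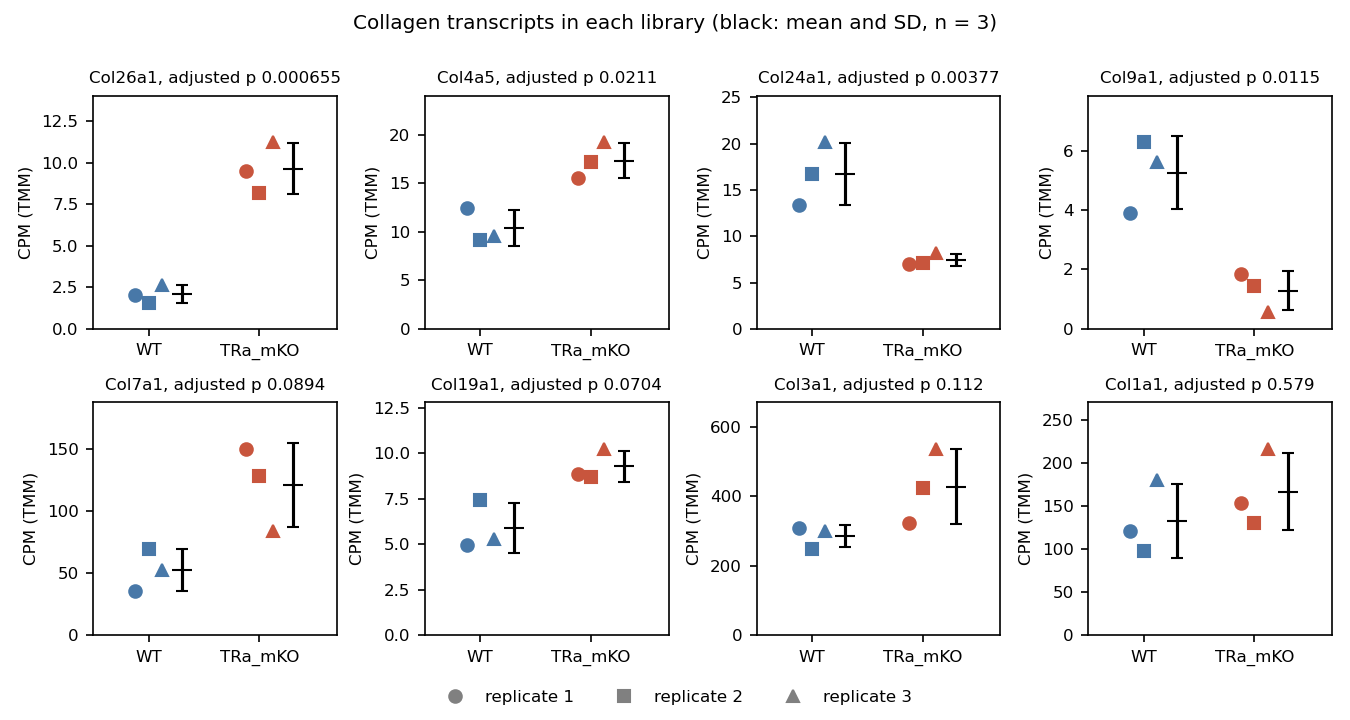
TMM-scaled CPM (vertical axes from 0) of 8 collagen transcripts in each library, with symbols for the replicate and black bars for the mean and SD of 3 libraries. The groups do not overlap for Col26a1, Col4a5, Col24a1, Col9a1, Col7a1, Col19a1 and Col3a1, and overlap for Col1a1; the first 4 passed the test.

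Col26a1 (gene ID 140709) encodes a short collagen with an EMI domain, first described in the testis and ovary of mice. It gave 2.02, 1.55 and 2.64 CPM in WT, against 9.52, 8.15 and 11.2 CPM in TRa_mKO, from 27, 20 and 40 raw reads against 130, 101 and 162. Every TRa_mKO library lay above every WT library with a wide gap. The log2 fold change was 2.20 (SE 0.22, 95% confidence interval 1.72 to 2.69, adjusted p = 0.000655), and it passed in all 16 alternative fits. Divided by transcript length, it was rank 29 of the 42 collagens in WT and rank 15 in TRa_mKO, at 0.744 and 3.46 CPM per kb. Noncoding loci of the RefSeq table lie within Col26a1 and Col24a1, and their reads could not be told apart.

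Col4a5 (gene ID 12830) encodes a type IV chain of specialised basement membranes, known from the kidney glomerulus and from Alport syndrome in humans. Its level was 12.5, 9.14 and 9.57 CPM in WT, against 15.6, 17.2 and 19.2 CPM in TRa_mKO. The groups did not overlap, and the gap between the highest WT and the lowest TRa_mKO library was narrower than the spread within either genotype. The log2 fold change was 0.74 (SE 0.14, interval 0.42 to 1.06, adjusted p = 0.0211). The call ended without WT replicate 2 (adjusted p = 0.0663), WT replicate 3 (0.0784), TRa_mKO replicate 2 (0.083) or TRa_mKO replicate 3 (0.0613).

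Col24a1 (gene ID 71355) is a minor fibrillar collagen known from developing bone and cornea. Its CPM were 13.4, 16.7 and 20.1 in WT and 6.96, 7.10 and 8.23 in TRa_mKO. The TRa_mKO libraries lay close together, and all of them were below the lowest WT library. It fell by 1.17 on the log2 scale (SE 0.16, interval -1.54 to -0.81, adjusted p = 0.00377) and passed in all 16 alternative fits.

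Col9a1 (gene ID 12839) encodes a chain of type IX collagen, the FACIT that coats type II fibrils in cartilage. It read 3.89, 6.27 and 5.61 CPM in WT, against 1.83, 1.45 and 0.554 CPM in TRa_mKO, the last from 8 reads. All TRa_mKO libraries were lower than all WT libraries. The log2 fold change was -2.05 (SE 0.35, interval -2.83 to -1.27, adjusted p = 0.0115), and leaving out either WT replicate 3 or TRa_mKO replicate 2 ended the call (adjusted p of 0.0527 and 0.0521). The partner chains of the same protein gave 1.92 ± 0.287 and 1.54 ± 0.531 CPM for Col9a2 (adjusted p = 0.661) and 0.672 ± 0.113 and 0.813 ± 0.121 CPM for Col9a3 (adjusted p = 0.759), in WT and TRa_mKO.

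The start regions of called members are shown because the targeted receptor is a DNA-binding protein whose classical site is a repeat of the letters AGGTCA. RefSeq sequences on GRCm38.p6, 250 bases before to 50 after the start, were at hand for 33 of the 42 members, among them Col24a1, Col9a1 and Col4a5; Col26a1 was not matched. Col24a1 is from chr3:145292222-145292521, Col9a1 from chr1:24177360-24177659 (the first of 2 listed start sites) and Col4a5 from chrX:141475169-141475468, all on the plus strand, and capitals mark AGGTCA on either strand or the GC box GGGCGG, which was found in Col4a5.
Col24a1: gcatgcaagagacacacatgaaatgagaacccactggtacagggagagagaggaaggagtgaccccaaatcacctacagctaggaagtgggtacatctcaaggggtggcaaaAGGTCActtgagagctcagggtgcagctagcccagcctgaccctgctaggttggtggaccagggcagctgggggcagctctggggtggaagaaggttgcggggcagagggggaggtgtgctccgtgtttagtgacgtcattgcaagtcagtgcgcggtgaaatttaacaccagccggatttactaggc
Col9a1: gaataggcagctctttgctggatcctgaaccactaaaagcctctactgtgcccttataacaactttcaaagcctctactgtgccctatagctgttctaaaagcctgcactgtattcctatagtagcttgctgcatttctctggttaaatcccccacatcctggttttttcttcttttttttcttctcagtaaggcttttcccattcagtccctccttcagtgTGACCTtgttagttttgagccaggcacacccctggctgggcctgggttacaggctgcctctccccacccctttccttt
Col4a5: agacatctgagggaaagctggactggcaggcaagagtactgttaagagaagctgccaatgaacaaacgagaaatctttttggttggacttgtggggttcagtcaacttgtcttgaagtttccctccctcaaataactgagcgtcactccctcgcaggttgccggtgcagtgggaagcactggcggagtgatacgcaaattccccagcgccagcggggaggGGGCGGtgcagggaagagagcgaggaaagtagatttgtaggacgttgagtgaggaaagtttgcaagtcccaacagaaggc
AGGTCA began 138 bases before the start of Col24a1 on the plus strand, and its reverse complement TGACCT began 28 bases before the start of Col9a1. On either strand it was found in 8 of 33 collagen start regions (24.2%) and in 16% of 27025 start regions of all genes. The direct repeat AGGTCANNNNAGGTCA was in 0 of the 33, against 0.0111% of all. The GC box was in 21 of the 33 (63.6%, against 35.9% of all) and the TATA box TATAAA in 4 (12.1%, against 14.2%). These matches describe letters in short windows only.

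Among the fibrillar collagens, 9 of 10 tested had a log2 fold change above 0 (8 with library size alone), with a median of 0.30, beside -0.0003 over all genes tested, but 0 rose by the edgeR test. The median came to 0.51 without WT replicate 3 and to 0.15 without either WT replicate 2 or TRa_mKO replicate 3. At an unadjusted p below 0.05, 4 were higher; DESeq2 called 1 of them, Col3a1, and limma-voom 0. Col3a1, the collagen of fine reticular fibrils (gene ID 12825), measured 309, 249 and 299 CPM in WT, against 321, 423 and 537 CPM in TRa_mKO. The groups stood apart by little, and TRa_mKO replicate 3 was the highest. Its log2 fold change of 0.58 (SE 0.18, interval 0.18 to 0.98) had an adjusted p of 0.112. It passed in 2 of 16 alternative fits, with DESeq2 (adjusted p = 0.0133) and without TRa_mKO replicate 1 (0.0215). With 1 library left out the adjusted p reached 0.278.

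The type I chains, the bulk of tendon and bone collagen, overlapped between genotypes. Col1a1 (gene ID 12842) read 120, 97.1 and 180 CPM in WT, against 153, 131 and 216 CPM in TRa_mKO (log2 fold change 0.33, SE 0.27, adjusted p = 0.579). Col1a2 (gene ID 12843) read 231, 186 and 305 CPM in WT, against 281, 237 and 376 CPM in TRa_mKO (0.31, SE 0.22, adjusted p = 0.512). In both, replicate 3 was the highest library of its genotype and WT replicate 2 the lowest of all.

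Type V chains start and thin the type I fibrils. Col5a1 gave 59.1, 50.2 and 67.1 CPM in WT, against 66.1, 75.6 and 93.3 CPM in TRa_mKO (log2 fold change 0.41, adjusted p = 0.158). Col5a2 gave 53.3, 47.2 and 53.8 CPM in WT, against 52.1, 62.3 and 75.4 CPM in TRa_mKO (0.30, adjusted p = 0.254). Col5a3 gave 62.6, 58 and 68.8 CPM in WT, against 71.9, 79.4 and 82.4 CPM in TRa_mKO, without overlap (0.30, SE 0.10, adjusted p = 0.118). The cartilage chains Col11a1, Col11a2 and Col2a1 and the minor chain Col27a1 had WT means of 4.94, 11.9, 0.526 and 4.67 CPM, and the tested ones among them had adjusted p of 0.748 to 0.961.

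**Figure D2:**
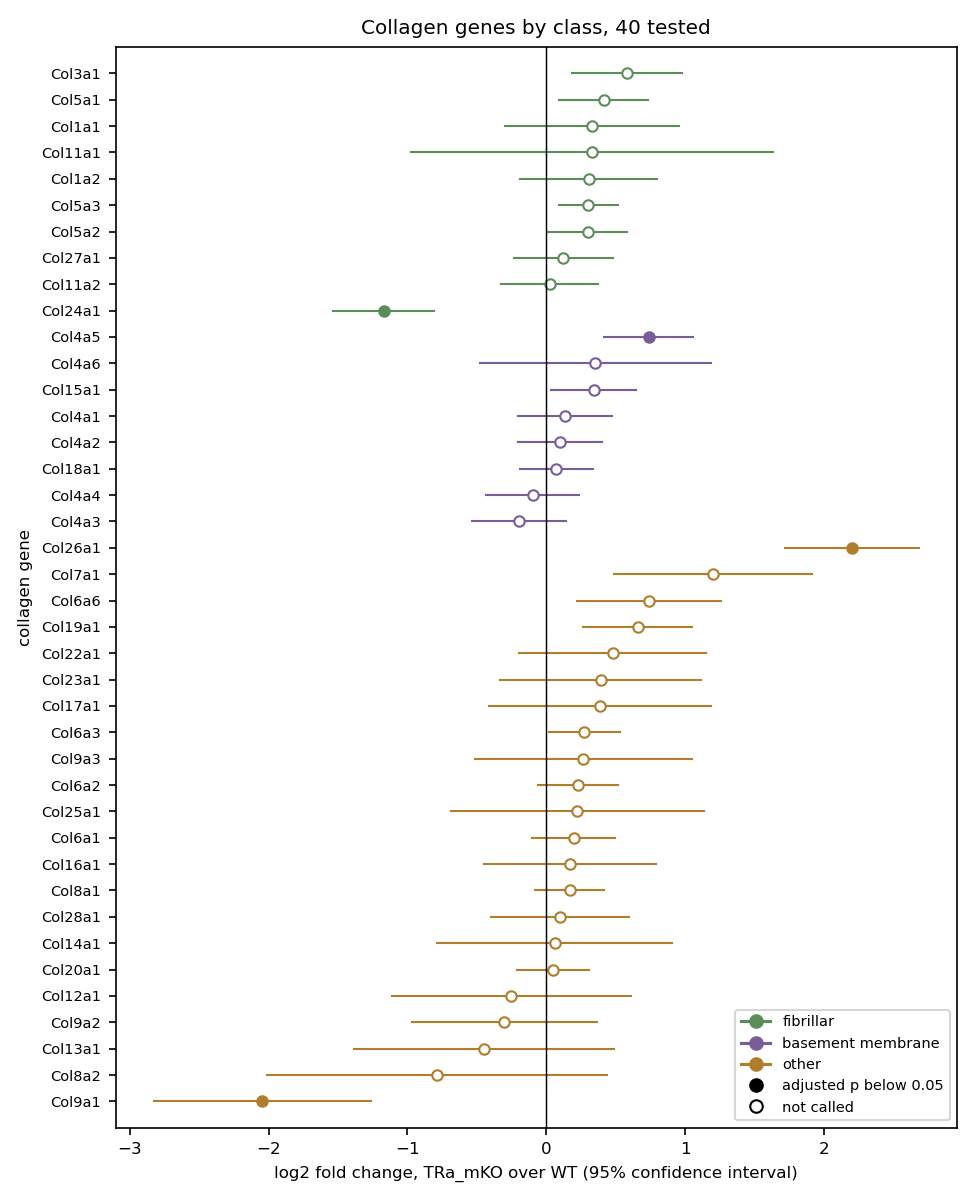
Log2 fold change of TRa_mKO over WT (points) with its 95% confidence interval (lines) for the 40 tested collagen genes, coloured by class, filled where the adjusted p was below 0.05. Most points lie right of 0 with intervals that reach it, and Col26a1, Col4a5, Col24a1 and Col9a1 are the filled points.

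In the basement membrane class the median log2 fold change was 0.12, and Col4a5 alone passed. Col4a1 and Col4a2, which pair in the common type IV protomer of nearly all basement membranes, were among the most abundant collagens per length. Col4a1 (gene ID 12826) read 460, 378 and 414 CPM in WT, against 371, 441 and 561 CPM in TRa_mKO (0.13, SE 0.15, interval -0.21 to 0.47, adjusted p = 0.715). Col4a2 (gene ID 12827) read 332, 288 and 299 CPM in WT, against 278, 314 and 396 CPM in TRa_mKO (0.10, SE 0.14, interval -0.20 to 0.41, adjusted p = 0.76). TRa_mKO held both the lowest and the highest library of each chain, and without its replicate 3 the log2 fold changes were -0.04 and -0.05.

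Col4a3 and Col4a4 join Col4a5 in the protomer of the glomerular membrane, and Col4a6 lies head to head with Col4a5 on the X chromosome. Col4a3 measured 8.43 ± 0.532 CPM in WT, against 7.33 ± 1.11 CPM in TRa_mKO (adjusted p = 0.548), and Col4a4 8.14 ± 1.15 and 7.61 ± 0.651 CPM (adjusted p = 0.797). Col4a6 read 0.599, 0.62 and 0.792 CPM in WT, against 0.586, 0.968 and 1.04 CPM in TRa_mKO, from about 10.5 reads a library (0.35, SE 0.37, adjusted p = 0.685). Col15a1, a proteoglycan collagen of muscle and capillary membranes, measured 84.7, 85.6 and 95.9 CPM in WT, against 95.9, 102 and 139 CPM in TRa_mKO (0.34, SE 0.14, adjusted p = 0.218), the lowest TRa_mKO library lying just above the highest WT one. Col18a1, the source of endostatin, gave 15.1 ± 1.08 and 15.9 ± 1.83 CPM (adjusted p = 0.808).

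Ratios between chains show which transcripts kept step within a library. Corrected for transcript length, Col4a1 over Col4a2 was 1.35, 1.28 and 1.35 in WT and 1.30, 1.37 and 1.38 in TRa_mKO, the narrowest of the 12 ratios computed. Col1a1 over Col1a2 was 0.471, 0.471 and 0.531 in WT and 0.492, 0.498 and 0.519 in TRa_mKO. Col4a5 over Col4a1 was 0.0275, 0.0245 and 0.0234 in WT and 0.0426, 0.0395 and 0.0347 in TRa_mKO, without overlap. Col4a5 over Col4a3 was 1.84, 1.40 and 1.60 in WT and 2.56, 3.72 and 3.16 in TRa_mKO, again without overlap. Col9a1 over Col9a2 lay at 1.72 to 2.40 in WT and at 0.197 to 1.19 in TRa_mKO. The other 7 ratios overlapped between genotypes, and none was tested.

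**Figure D3:**
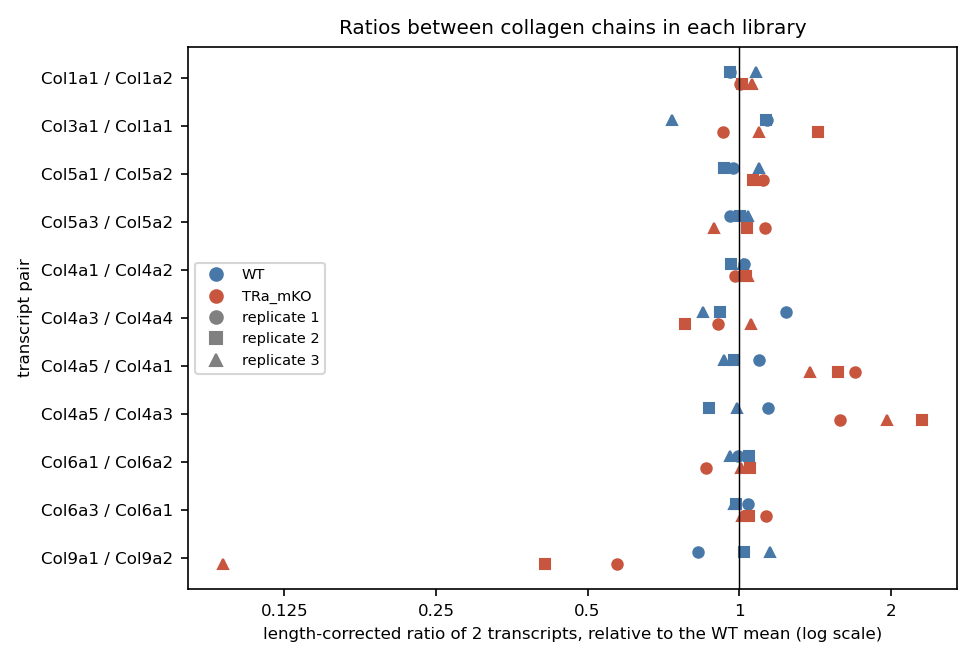
Length-corrected ratio of 2 collagen transcripts in each library, divided by the WT mean (horizontal log scale), with WT above and TRa_mKO below each line. Ratios of Col4a1 to Col4a2 and of Col1a1 to Col1a2 cluster near 1 in both genotypes, while both Col4a5 ratios lie to the right and Col9a1 over Col9a2 to the left in TRa_mKO.

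The other collagens had a median log2 fold change of 0.21. All 4 tested type VI chains were above 0 and 0 passed, by edgeR, DESeq2 or limma-voom (2 were higher at an unadjusted p below 0.05). Col6a1 (gene ID 12833) read 125, 117 and 138 CPM in WT, against 123, 137 and 176 CPM in TRa_mKO (adjusted p = 0.492), and Col6a2 89, 79.4 and 102 CPM in WT, against 102, 92.1 and 124 CPM in TRa_mKO (adjusted p = 0.392). Col6a3, the long chain that completes the protomer, read 90.8, 80.8 and 94.3 CPM in WT, against 97.2, 100 and 125 CPM in TRa_mKO (0.28, SE 0.11, adjusted p = 0.236). Col6a6, an alternative to that chain, read 2.25, 2.32 and 3.10 CPM in WT, against 3.44, 4.12 and 5.33 CPM in TRa_mKO (0.74, SE 0.23, adjusted p = 0.118). Col6a3 and, at a low level, Col6a6 held the genotypes apart, while Col6a1 and Col6a2 overlapped.

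Col7a1 (gene ID 12836), which forms the anchoring fibrils of skin, did not pass the edgeR test. It read 35.8, 69 and 52.3 CPM in WT, against 150, 128 and 83.4 CPM in TRa_mKO. The groups did not overlap, and both spread widely. The log2 fold change was 1.20 (SE 0.30, interval 0.49 to 1.92, adjusted p = 0.0894). It passed in 3 of 16 alternative fits: with DESeq2 (adjusted p = 0.0164), with limma-voom (0.036) and when the library richest in haemoglobin was left out of both genotypes (0.00905). With any 1 library left out it did not pass (adjusted p = 0.0558 to 0.238).

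Among the FACITs, Col19a1 (gene ID 12823), which mice need for normal muscle of the oesophagus, read 4.94, 7.44 and 5.28 CPM in WT, against 8.86, 8.72 and 10.2 CPM in TRa_mKO. It kept the groups apart, with a log2 fold change of 0.66 (SE 0.18, adjusted p = 0.0704). It passed in 1 of 16 alternative fits, without WT replicate 2 (adjusted p = 0.0278), and with 1 library left out the adjusted p reached 0.217. Col22a1, which marks fibre ends at the myotendinous junction, read 35.3, 31 and 60.3 CPM in WT, against 73, 48.3 and 55.5 CPM in TRa_mKO (adjusted p = 0.438). Col12a1 and Col14a1, which bind type I fibrils, had adjusted p of 0.791 and 0.956.

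Transmembrane collagens, of which Col13a1 and Col25a1 serve motor synapses, gave 0 calls of 4 by edgeR, DESeq2 or limma-voom, and 0 at an unadjusted p below 0.05. Col13a1 measured 1.47 ± 0.756 CPM in WT, against 1.08 ± 0.294 CPM in TRa_mKO (adjusted p = 0.637), and Col25a1 1.16 ± 0.652 and 1.34 ± 0.259 CPM (adjusted p = 0.838). These levels rest on means of 17.7 and 16.8 reads a library, a depth at which wide intervals remain (-1.39 to 0.49 and -0.69 to 1.13 on the log2 scale).

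Across the family, values ran highest in TRa_mKO replicate 3. That library was the highest of the 6 for 22 of 40 tested members (55%), against 17.4% of all genes tested, and WT replicate 2 was the lowest for 20 (50%), against 15.8%. The collagens were not alone in this among the lists described below. TRa_mKO replicate 3 was highest for 13 of 21 modification and folding genes, 8 of 15 basement membrane partners and 7 of 10 fibroblast markers. It was highest for 6 of 18 fibril-binding genes, 1 of 8 collagen receptors and 0 of 9 endothelial markers. Fibrillar collagens summed to 870, 723 and 1021 CPM in WT, against 982, 1033 and 1413 CPM in TRa_mKO. Basement membrane collagens summed to 921, 793 and 852 CPM in WT, against 793, 903 and 1149 CPM in TRa_mKO. The remaining class summed to 471, 456 and 558 CPM in WT, against 643, 606 and 690 CPM in TRa_mKO, without overlap, and Col7a1 gave the largest part of that gap.

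Without TRa_mKO replicate 3 the median log2 fold change was 0.15 for fibrillar, -0.03 for basement membrane and 0.14 for other collagens, 26 of 40 members were above 0 in place of 32, and 6 in place of 11 were higher at an unadjusted p below 0.05 (9.5% of all genes in that fit). Scaling by library size alone, which lowers the median of all genes by 0.05, left 6 higher as well (6.8% of all genes). Counted by non-overlap of the libraries, 9 members were higher and 2 lower, where 13.2% of all genes tested were higher and 10.1% lower.

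**Figure D4:**
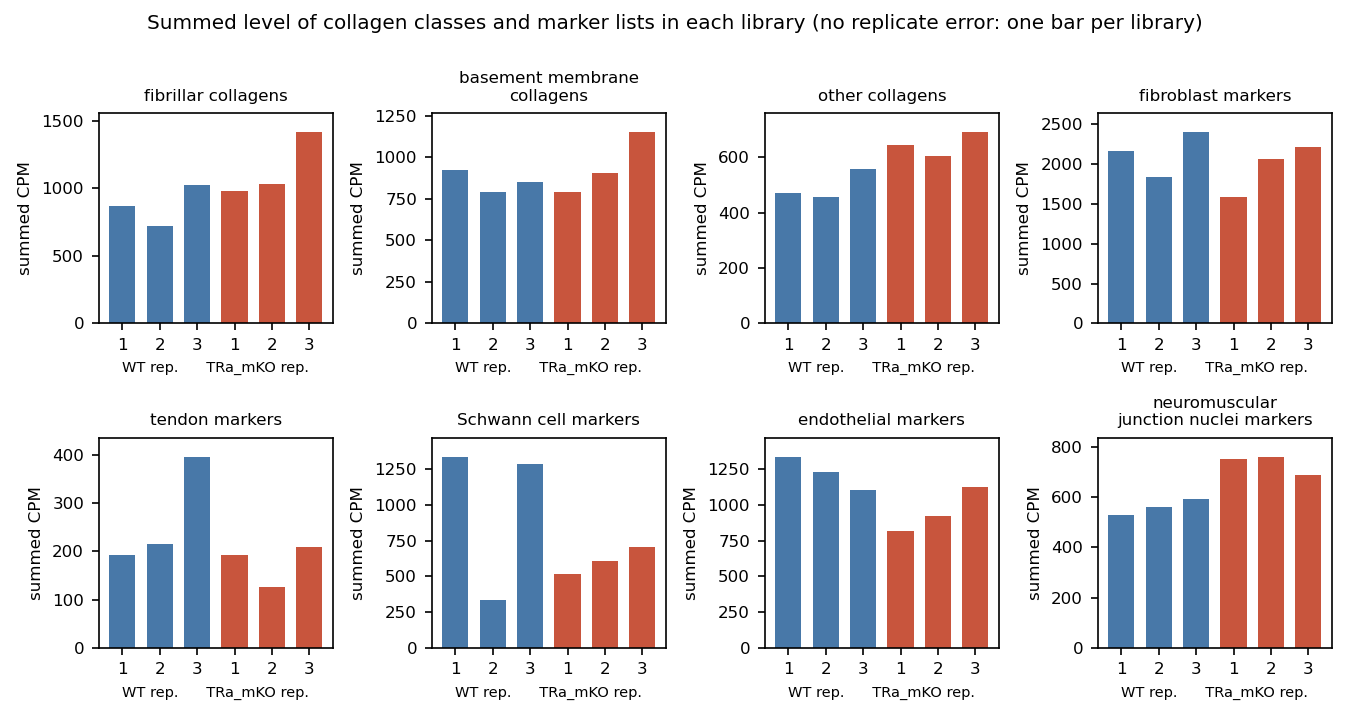
Summed CPM (vertical axes from 0) of 3 collagen classes and 5 lists of cell type markers, with 1 bar per library, WT in blue and TRa_mKO in red. TRa_mKO replicate 3 is the highest bar for each collagen class, and the sums of fibroblast, tendon, Schwann cell and endothelial markers are highest in a WT library. Gsn gives the largest part of the fibroblast sums (1562.5 CPM in WT replicate 3). Taken singly, 7 of the 10 fibroblast markers were highest in TRa_mKO replicate 3.

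Markers of the cells that could carry these transcripts moved as follows, and their part in the results was not tested. Every listed marker had reads in at least 1 library. None of the 10 fibroblast markers passed (0 at an unadjusted p below 0.05), their median was 0.01 (-0.04 with library size alone), and they summed to 1832 to 2396 CPM in WT, against 1591 to 2216 CPM in TRa_mKO. Endothelial markers gave 0 calls of 9 with a median of -0.34 (1103 to 1339 CPM in WT, 819 to 1130 CPM in TRa_mKO). At an unadjusted p below 0.05, 5 of the 9 were lower, where 7.72% of all genes tested were lower. Of 9 pericyte and smooth muscle markers, Notch3 (54.9 ± 0.862 to 43.5 ± 1.90 CPM, adjusted p = 0.0399) and Kcnj8 (67.5 ± 4.11 to 51.3 ± 4.96 CPM, adjusted p = 0.0481) fell, both calls ending without WT replicate 1, 2 or 3 or TRa_mKO replicate 2 (adjusted p = 0.0736 to 0.168), and the list summed without overlap to 2109 to 2194 CPM in WT, against 1837 to 2074 CPM in TRa_mKO. All 9 Schwann cell markers had a log2 fold change below 0, where 50.0% of all genes tested were above 0, and 0 passed. They summed to 332 to 1337 CPM in WT, against 517 to 702 CPM in TRa_mKO. Tendon markers summed to 192 to 396 CPM in WT, against 125 to 209 CPM in TRa_mKO, with 0 calls of 8. Macrophage, adipocyte and red cell markers had 0 calls each, with sums that overlapped between genotypes. At an unadjusted p below 0.05, 1 Schwann cell, 1 tendon, 1 macrophage, 0 adipocyte and 0 red cell markers were lower, beside the same 7.72% of all genes. Of the pericyte and smooth muscle markers 22.2% were called, against 4.17% of all genes tested. In the lists with 0 calls by edgeR, DESeq2 called Kdr and Thbs4, both lower, and limma-voom called 0.

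Markers of the muscle fibres themselves were mostly higher in value, with 9 of 11 above 0 (8 with library size alone) and a median log2 fold change of 0.30, and their part in the collagen values was not tested. They summed to 117288, 144888 and 107689 CPM in WT, against 154900, 137724 and 139422 CPM in TRa_mKO, with overlap. At an unadjusted p below 0.05, 4 were higher and 0 lower, where 10.2% of all genes tested were higher and 7.72% lower. Myh2, the myosin of fast oxidative fibres, passed (1447 ± 330 to 2399 ± 13.6 CPM, adjusted p = 0.0352). DESeq2 called 3 markers and limma-voom 1. Myh2 holds reads shared with other genes, and its call ended without any 1 library but WT replicate 1 (adjusted p = 0.0615 to 0.137).

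Of 9 tested markers of the nuclei at the neuromuscular junction, 6 rose and 0 fell (median 0.48), where 2.52% of all genes tested rose. The list summed to 528, 559 and 592 CPM in WT, against 751, 762 and 688 CPM in TRa_mKO. Prkar1a, which did not pass (adjusted p = 0.118), gave the largest part of these sums (317 ± 18.4 CPM in WT, 396 ± 25.9 CPM in TRa_mKO). The part of these nuclei in the collagen values was not tested. The markers that rose included the acetylcholine receptor genes Chrna1 (24.9 ± 1.89 to 50.8 ± 3.30 CPM, adjusted p = 0.000446) and Chrnd (4.02 ± 0.582 to 10.2 ± 0.738 CPM, adjusted p = 0.00162), and Colq, the collagen-like tail of acetylcholinesterase (18.8 ± 2.82 to 35.3 ± 1.74 CPM, adjusted p = 0.00267). Markers of myotendinous junction nuclei gave 0 calls of 5, Col22a1 among them, and 1 was higher at an unadjusted p below 0.05.

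The machinery around collagen showed few calls. In the endoplasmic reticulum, prolines and lysines of new chains are hydroxylated and the helix is folded with chaperones; of 21 tested genes of these steps 0 were called, with a median of 0.08. Among them, 1 was higher and 1 lower at an unadjusted p below 0.05. Sparc, a collagen-binding chaperone-like protein, measured 665 CPM in WT, against 756 CPM in TRa_mKO (adjusted p = 0.602), and P4hb, a subunit of prolyl hydroxylase, 225 and 245 CPM (adjusted p = 0.535). Procollagen processing and crosslinking gave 0 calls of 13 (median 0.09), with 2 higher and 0 lower unadjusted, Tgm2, a crosslinking enzyme, measuring 142 and 123 CPM (adjusted p = 0.324).

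Proteoglycans and glycoproteins that bind fibrils were mostly lower in value, with 14 of 18 below 0 and a median of -0.21, and 0 were called (0 higher and 2 lower unadjusted). Dcn, decorin, which limits fibril width, measured 816 ± 140 CPM in WT, against 673 ± 103 CPM in TRa_mKO (adjusted p = 0.388), and Tnxb 152 and 154 CPM (adjusted p = 0.959). Basement membrane partners such as laminins and nidogens gave 0 calls of 15 (median 0.09, 0 unadjusted in either direction). Dag1, dystroglycan, measured 334 ± 55.7 and 395 ± 31.4 CPM (adjusted p = 0.376).

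Proteases that cut collagen and their inhibitors gave 0 calls of 15 (median -0.02, 0 higher and 2 lower unadjusted), with Timp3 at 422 and 387 CPM (adjusted p = 0.678). Collagen receptors gave 0 of 8 (median -0.10, 0 higher and 1 lower unadjusted), with the integrin chain gene Itgb1 at 300 and 288 CPM (adjusted p = 0.817). Over these 6 lists without a call by edgeR, DESeq2 called 1 gene, Thbs4 of the fibril-binding list, and limma-voom called 0.

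TGF-beta signalling, the main inducer of fibrillar collagen genes, was the one list of this group with calls, 1 higher and 2 lower of 16, with a median of -0.03. The share called was 18.8%, against 4.17% of all genes tested. At an unadjusted p below 0.05, 4 were higher and 3 lower, where 10.2% of all genes tested were higher and 7.72% lower. DESeq2 called 2 higher and 2 lower, and limma-voom 1 higher and 2 lower. Smad3, a transcription factor of the pathway, stood at 110 ± 18.6 CPM in WT and fell to 58.9 ± 6.97 CPM (-0.90 on the log2 scale, SE 0.13, adjusted p = 0.00559), a call kept in every alternative run. Skil, which represses that factor, fell from 32.7 ± 3.63 to 22 ± 2.65 CPM (-0.57, SE 0.12, adjusted p = 0.026), and its call ended without WT replicate 1 or TRa_mKO replicates 1 or 2 (adjusted p = 0.0565 to 0.0996). Ltbp3, which holds latent TGF-beta in the matrix, rose from 69.2 ± 9.10 to 95.6 ± 0.872 CPM (0.47, SE 0.10, adjusted p = 0.0364), and its call ended with any library left out (adjusted p = 0.0502 to 0.137) and with library size alone (0.0597). The groups of all 3 genes did not overlap.

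**Figure D5:**
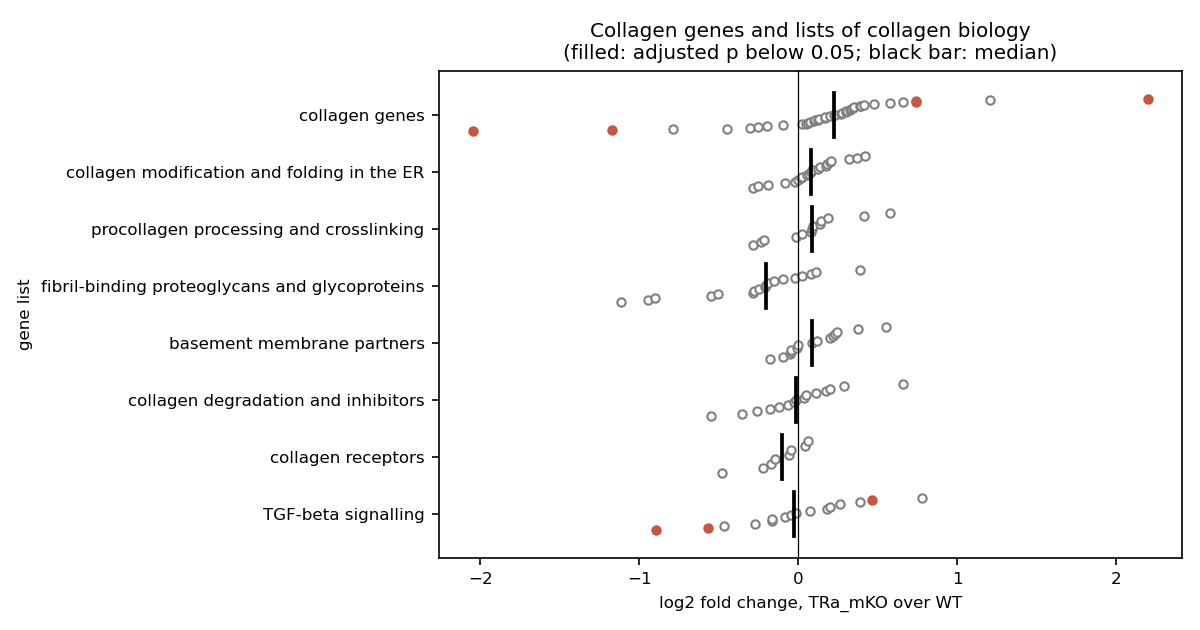
Log2 fold change of TRa_mKO over WT (horizontal axis) for each tested collagen gene and each tested gene of 7 lists of collagen biology, filled where the adjusted p was below 0.05, with a black bar at the median. Collagen genes show 4 filled points and a median of 0.23, TGF-beta signalling shows 3 filled points, and the other lists show 0.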

How the data were processed

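Polyadenylated RNA of gastrocnemius muscle was read in 3 WT and 3 TRa_mKO libraries, all given batch 1 by the labels. The authors deposited estimated counts per gene without normalization, called read counts in the header. The tools in the submitters' processing notes are featureCounts, Trimmomatic 0.39, MultiQC 1.12 and FastQC 0.11.9; mm10, GRCm39 and GRCm38.p6 are listed as builds without roles. Aligner and strand setting: not given in the sources used here. No collagen gene had fractional counts. Of the value columns, 0 were given to no sample.

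Counts were rounded, filtered by filterByExpr (minimum count 10), scaled by TMM and tested over all genes in R 4.3.3 with edgeR 4.0.16 (quasi-likelihood, two-sided, genotype as factor), with Benjamini-Hochberg adjustment. The common biological coefficient of variation was 11.8%. Values are CPM as mean ± SD of 3 libraries or per library. Whether libraries are separate mice is taken from the series design, and p-values set the difference between genotypes against the spread among libraries within a genotype. On simulated counts for the 13118 genes of TRa_mKO over WT, recovery was 48.7% for 1.5-fold changes, 85.3% for 2-fold and 98.7% for 4-fold, with 8.7% false calls. Levels per kb used the longest GENCODE M21 transcript. The collagen members, classes and lists were chosen with earlier results of these data known. Printed per library were members with an unadjusted p below 0.05, the most abundant of each class, Col26a1 and partners of type IV pairs; other lists gave up to 3 called members, or at most 2 abundant ones. Further members were named after their values were seen, for their known roles. Alternatives used DESeq2 1.42.0, limma 3.58.1, other scaling, filters and thresholds, a replicate block and left-out libraries. Col21a1 was not analysed here.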

Additional observations from a re-analysis of the deposited data

How the results depend on the processing

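Under the alternatives tried, 95 summary results were rated the same, 8 weaker and 1 moved. Counts of called genes or collagens were rated the same within a 1.5-fold ratio of the main count, and class medians within their spread between libraries. Those not rated the same are covered here. With the replicate number as a block, 357 genes were called in place of 547, and Col4a5 no longer passed (adjusted p = 0.0538). Same-numbered libraries did not deviate together from their genotype means (r = -0.176, 0 and -0.006). With 3 libraries per genotype these r values depend on one another, so they cannot show whether same-numbered samples were paired. With the library richest in haemoglobin left out of both genotypes, 267 genes were called. Leaving out 1 library gave 209 to 595 called genes, 2 to 5 called collagens (2 without WT replicate 3 or TRa_mKO replicate 2) and median log2 fold changes of -0.028 to 0.238 for basement membrane, 0.152 to 0.514 for fibrillar and 0.118 to 0.290 for other collagens. At an adjusted p below 0.01, 2 collagens were called, Col26a1 and Col24a1. DESeq2 called 6 of the 40 tested collagens and 762 of all 13118 genes, and limma-voom called 5 of 40 and 508 of 13118. With library size alone 45.5% in place of 60.5% of calls over all genes were upward, while the same 4 collagens were called. The 4 called collagens kept their direction in all alternatives, but 11 of the 40 tested, whose lowest adjusted p was 0.715, changed sign in at least 1. With library size alone the log2 fold change was -0.037 for Col11a2 and -0.0035 for Col20a1. Without the haemoglobin-rich libraries it was -0.122 for Col11a1, -0.109 for Col14a1, -0.084 for Col16a1 and -0.169 for Col28a1. With 1 library left out it ranged from -0.117 to 0.117 for Col11a2, -0.569 to 0.132 for Col12a1, -0.262 to 0.305 for Col14a1, -0.096 to 0.414 for Col16a1, -0.0156 to 0.141 for Col18a1, -0.0004 to 0.122 for Col20a1, -0.11 to 0.745 for Col25a1, -0.122 to 0.317 for Col28a1, -0.0399 to 0.264 for Col4a1 and -0.0506 to 0.212 for Col4a2. Tested collagens with a mean under 20 reads a library have intervals too wide to show changes of 1.5-fold.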

Other observations

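Col11a1, Col12a1 and Col14a1, picked after their values were seen, varied between libraries of the same genotype. Col11a1, a cartilage and tendon fibril chain, read 2.62, 3.56 and 8.65 CPM in WT, against 8.35, 2.91 and 7.47 CPM in TRa_mKO. Col12a1, a FACIT of tendon and fascia, read 5.91, 6.04 and 11.3 CPM in WT, against 6.81, 3.63 and 9.06 CPM in TRa_mKO. Col14a1, a FACIT of tendon and skin, read 14.5, 7.13 and 14.4 CPM in WT, against 7.98, 12.2 and 17.5 CPM in TRa_mKO. In WT Col11a1 and Col12a1 were highest in replicate 3, where tendon markers summed to 396 CPM against 192 and 216 CPM in the other WT libraries. In TRa_mKO these were lowest in replicate 2, where tendon markers summed to 125 CPM against 193 and 209 CPM. Within TRa_mKO, Col11a1 was highest in replicate 1 (8.35 CPM), while the tendon markers summed highest in replicate 3 (209 CPM). Col14a1 did not follow the order of the tendon sums, being highest in TRa_mKO replicate 3 and lowest in WT replicate 2. The part of tendon in these values was not tested. None of the 3 chains passed the edgeR test (adjusted p = 0.821, 0.791 and 0.956).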
